A study of Mus musculus with 22 samples.

Results

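The mouse mitochondrial genome carries its own small set of protein genes, and the messenger RNAs of that set are followed here through the life of the ovary. The members are all rows of the expression table whose gene name starts with mt-, 13 of 34745 rows. All 13 are protein genes of the mitochondrial genome. The annotation lists 37 mitochondrial genes in all, and its 2 ribosomal RNA and 22 transfer RNA genes were not analysed here. Whole ovaries of wild-type CD1 mice, an outbred stock, were profiled by bulk RNA sequencing at 11 ages with 2 libraries each, 22 in total. The fetal ages were embryonic days 13, 15 and 17 (E13, E15 and E17). They were followed by newborns (P0), by 5 later postnatal days from P3 over P7, P14 and P21 to P60, and by females of 1 year (Y1) and 2 years (Y2). No group carried a transgene or received a treatment, and the estrous cycle stage of the adults is not labelled. Levels are FPKM, fragment numbers scaled by transcript length and by library size. Comparisons between genes are of these values, which also depend on how reads that match several places were assigned.

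Mitochondrial DNA is a compact circle that is transcribed from both strands into long RNAs by its own polymerase, Polrmt. The long RNAs are mostly cut apart at the transfer RNAs that lie between many of the coding genes. Same-strand neighbours that overlap, such as mt-Atp8 with mt-Atp6 and mt-Nd4l with mt-Nd4, have no transfer RNA between them. All 13 proteins are core subunits of the machinery of oxidative phosphorylation, which nuclear genes complete. Oocytes are known for their very large number of mitochondria, and steroid-making cells of the ovary carry out the first step of steroid synthesis, by Cyp11a1, inside mitochondria. Because levels of messengers cut from one transcript depend on processing and decay as well as on transcription, the balance between the genes is of interest beside their sum.

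The genes lie almost end to end, and some overlap, which matters for how reads can be assigned. Positions are on chromosome M of GRCm38 (mm10), counted from 1, and the sequences are those of the GENCODE M21 transcripts. The end of mt-Atp8 and the start of mt-Atp6, both subunits of ATP synthase, share 43 bases, and the pair is shown because their levels differed. Capitals mark the shared bases of the plus strand, at chrM:7907-7969 for mt-Atp8 and chrM:7927-7989 for mt-Atp6.
mt-Atp8: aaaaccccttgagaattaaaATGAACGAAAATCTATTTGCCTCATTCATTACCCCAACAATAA
mt-Atp6: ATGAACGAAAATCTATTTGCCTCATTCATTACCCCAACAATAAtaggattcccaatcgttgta
The end of mt-Nd4l and the start of mt-Nd4, both subunits of complex I, share the 7 bases in capitals, at chrM:10134-10173 and chrM:10167-10206.
mt-Nd4l: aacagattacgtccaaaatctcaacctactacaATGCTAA
mt-Nd4: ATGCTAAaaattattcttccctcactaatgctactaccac
The ends of mt-Nd5 and mt-Nd6 share 14 bases on opposite strands. mt-Nd6 is the only one of the 13 genes annotated on the minus strand. Whether the libraries keep the strand is not given in the sources used here, so reads of mt-Nd6 and of antisense RNA across it cannot be told apart.

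A second source of ambiguity lies in the nucleus. A stretch of chromosome 1, chr1:24611535-24616197 on the minus strand, holds 7 annotated pseudogenes that repeat 7 of the 13 genes. Of these copies, 5 were identical to the mitochondrial gene over the whole aligned length, among them Gm10925, the copy of mt-Atp6 (678 bases), and Gm10222, the copy of mt-Nd4l (294 bases). Gm28438 differs from mt-Nd3 by T3C, counted from the first base of mt-Nd3, and the window at chrM:9459-9481 and chr1:24613097-24613119 shows that base in capitals.
mt-Nd3: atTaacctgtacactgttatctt
Gm28438: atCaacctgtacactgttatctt
Gm29216 repeats the end of mt-Co1, from base 1054, with 6 differences, all near its own start. The window at chrM:6381-6403 and chr1:24616175-24616197 shows the first of them, T1056A, in capitals.
mt-Co1: ggTctaaccggaattgttttatc
Gm29216: ggAttggcaggatttgttttatc
For 7 of the 13 genes most of the 31-base stretches of the transcript also occur in another annotated transcript: mt-Co2 (100%), mt-Co3 (99.9%), mt-Atp6 (99.5%), mt-Nd4l (98.9%), mt-Nd3 (98.1%), mt-Co1 (63.9%) and mt-Nd4 (62.8%). The other 6, mt-Nd5, mt-Nd2, mt-Atp8, mt-Nd6, mt-Cytb and mt-Nd1, range from 16.8% down to 0%. Among the copies Gm10925 had the highest mean level over the 22 libraries with 1244 FPKM, followed by Gm28661 (the copy of mt-Co2) with 1119, Gm29216 with 990.4, Gm28437 (the copy of mt-Co3) with 971 and Gm10222 with 595. How reads that match both places were assigned is not given in the sources used here.

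The table gives no read counts. The low values of a library fall on whole multiples of the value of 1 read, which gave an estimated 11480000 to 18150000 reads per library. Apart from mt-Nd4l, each mt- gene then had at least an estimated 234 reads in every library. mt-Nd6 had 234 to 1300 and the others at least 5181. For mt-Nd6 counting error is not small beside the spread between libraries at some ages, such as E17 with 273 and 267 reads. The granulosa genes Foxl2 and Amhr2, chosen after their values were seen, were at 10.01 FPKM or more in each of the 22 libraries. Of the other listed ovarian markers, Inha, Nr5a1, Star and Hsd3b1 were never under 1 FPKM. The rest were under 1 FPKM in some libraries, from Ddx4 in 2 to Fshr in 9. Whole ovaries were sequenced, so a change in the number of cells of one type and a change of RNA per cell cannot be told apart. Nothing in the labels ties a library to its own animal, so p-values here measure only the spread among these samples, and that spread may be technical. Fetal values carry fewer decimals in the table than later ones, and whether both sets were quantified together is not given in the sources used here.

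The mt- genes were among the most abundant messengers of the ovary at every age, and between 8 and 10 of the 10 highest rows of each library were members. Cytochrome c oxidase (complex IV), which passes electrons to oxygen, had the gene with the highest median and maximum. mt-Atp8 had the higher mean level at some ages, E13, P3, P60 and Y1 among them. The level of mt-Co1, its catalytic subunit, ran from 7019 over a median of 9162 to 13511 FPKM in the 22 libraries. The level of mt-Co2, which binds cytochrome c, ran from 5429 over 6289 to 9159 FPKM, and that of mt-Co3 from 4318 over 5195 to 7016 FPKM. The lowest mt-Co1 value was thus above the highest mt-Co3 value. The small ATP synthase subunit gene mt-Atp8 ran from 7430.3 over 8723 to 13405 FPKM, in the range of mt-Co1. mt-Cytb, the cytochrome b of complex III, ran from 2960.02 over 3757 to 5280.1 FPKM.

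The 7 subunit genes of complex I, the NADH dehydrogenase, were spread more widely. mt-Nd1 ran from 3122 over 3784 to 5795 FPKM and overlapped the range of mt-Cytb. mt-Nd4 followed with 1785 over 2364 to 4035 FPKM and mt-Nd2 with 1135 over 1779 to 3983 FPKM. mt-Nd5 ran from 776 over 1626 to 2072 FPKM and mt-Nd3 from 889.6 over 1290.04 to 1962 FPKM, so the ranges of mt-Nd2, mt-Nd5 and mt-Nd3 overlapped. mt-Nd6, the gene of the other strand, stood far below with 33.8 over 64.7 to 150 FPKM, and its best rank in any library was 163. For the 11 genes other than mt-Atp6 and mt-Nd4l, the largest ratio between the 2 libraries of one age was 1.16 to 1.76, the widest being mt-Nd6 at P0 (108 and 61.5 FPKM).

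**Figure D1:**
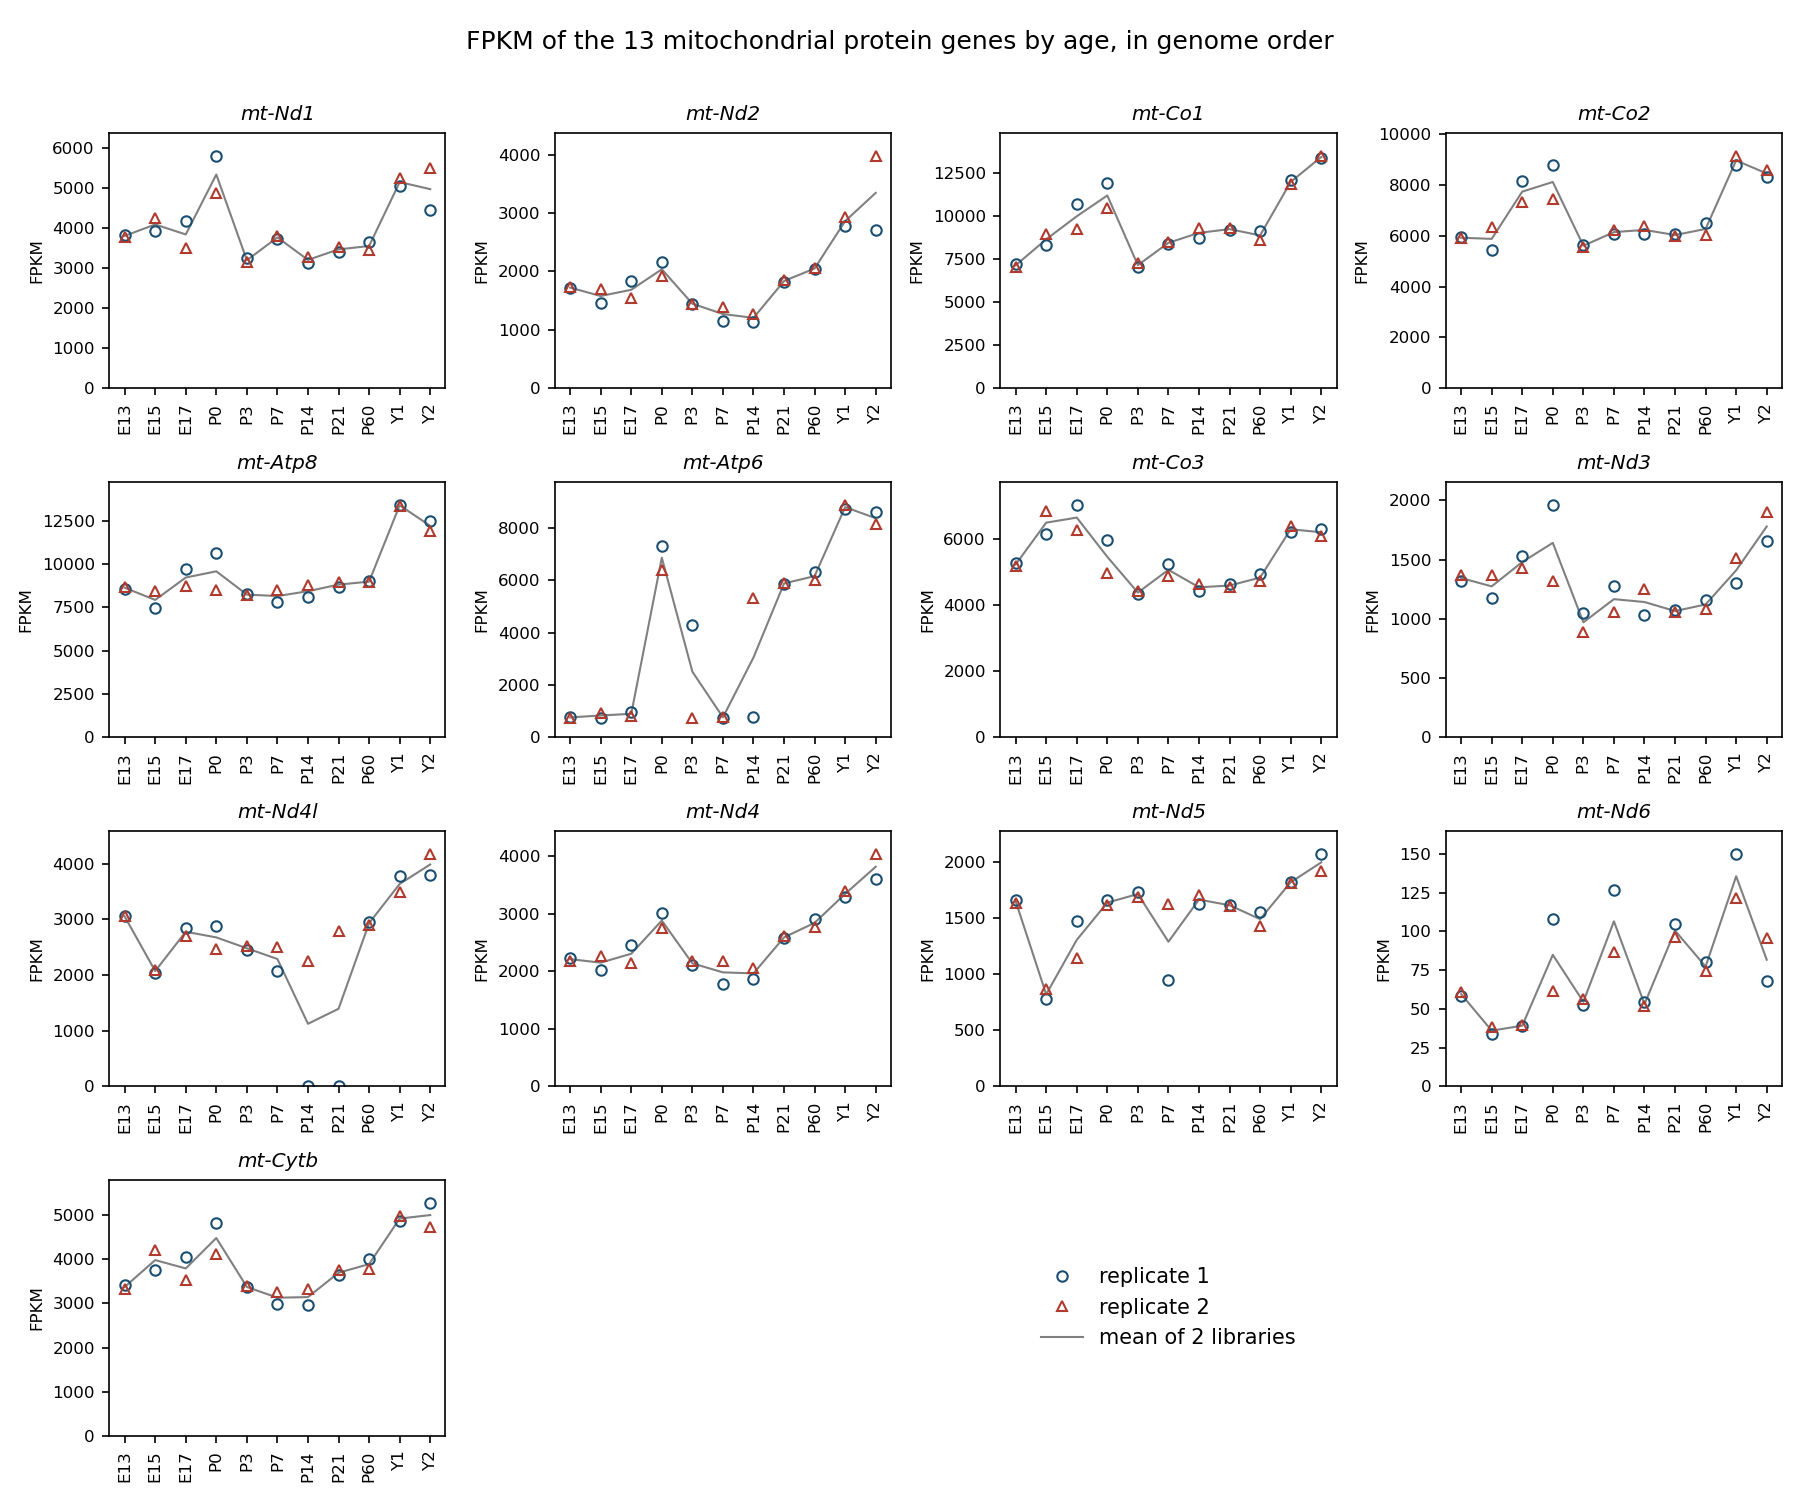
FPKM (linear axis from 0) of each of the 13 mt- genes against age, with a circle for replicate 1, a triangle for replicate 2 and a line through the mean of the 2 libraries. mt-Nd1, mt-Co1, mt-Co2 and mt-Cytb are high at P0 and again at Y1 and Y2, while mt-Atp6 at P3 and P14 and mt-Nd4l at P14 and P21 have libraries far apart.

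Together the 13 genes held 15.4% to 24.7% of the FPKM total of a library, and the highest shares were in the oldest ovaries. At E13 the share was 17.5% and 17.3%, at E15 15.5% and 16.5%, and at E17 19.6% and 18.3%. It was 22.8% and 20.4% at P0, and 17.4% and 16.3% at P3. At P7 it was 15.8% and 17.04%, at P14 15.4% and 18.5%, at P21 17.9% and 19.0%, and at P60 19.5% and 18.9%. The libraries of Y1 (24.0% and 23.9%) and Y2 (23.9% and 24.7%) were above all others, and the next was P0 replicate 1. Part of this pattern rests on mt-Atp6 and mt-Nd4l, which are taken up next. Without them the 11 other genes held 14.5% to 20.6%, still with the highest values at Y1 and Y2. The fetal mean of these 11 genes was 16.2% ± 1.28 and the adult mean (P60, Y1 and Y2) 18.7% ± 2.17 (SD, n = 6 libraries each), a difference of 2.49 percentage points against 5.03 for all 13. The adult ages were not alike: the P60 libraries held 16.1% and 15.7% over the 11 genes, close to the fetal mean, and those of Y1 and Y2 19.8% to 20.6%. The share is a sum over members and was given no test.

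**Figure D2:**
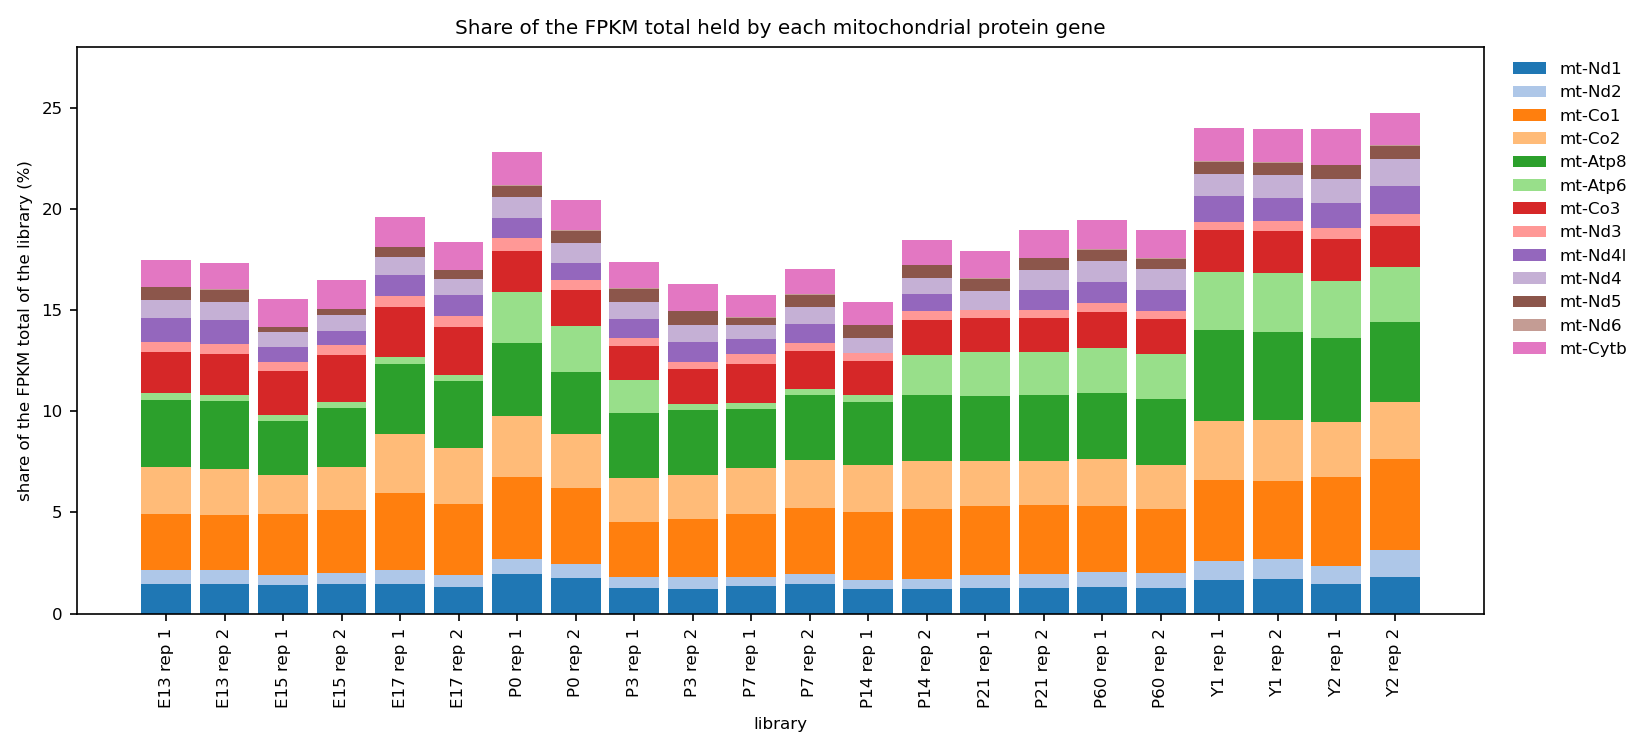
Stacked bars give the percentage of the FPKM total of each of the 22 libraries held by each of the 13 mt- genes. The bars reach 23.9% to 24.7% at Y1 and Y2, and the band of mt-Atp6 is thin in 10 libraries.

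mt-Atp6, which codes for the proton channel subunit of ATP synthase, had 2 separate levels with nothing between them. In 10 libraries it was at 719 to 969 FPKM, and in the other 12 at 4295 to 8881 FPKM. The low values comprised all 6 fetal libraries, both P7 libraries, 1 of P3 and 1 of P14. At P3 it was 4295 FPKM in replicate 1 and 719 in replicate 2, and at P14 792 in replicate 1 and 5309 in replicate 2. The jump therefore also occurred between libraries of the same age. The overlapping neighbour mt-Atp8 was at 8267 and 8193 FPKM in the same P3 libraries and at 8091 and 8758 at P14. The other neighbour, mt-Co3, was at 4318 and 4419 FPKM at P3 and at 4426 and 4629 at P14. Neither neighbour shared the jump.

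The nuclear copy Gm10925 showed no such jump. Its level was 968 and 1005 FPKM for P3 and 969 and 1102 FPKM for P14. In the fetal libraries it was 757.6 to 1270 FPKM (lowest to highest), against 1298 to 1881 in the adult ones, higher by 0.69 on the log2 scale (limma, adjusted p = 1.42e-06). Where mt-Atp6 was low it lay near the level of its copy: the ratio of mt-Atp6 to Gm10925 was 0.696 to 1.02 in those libraries, against 3.95 to 5.59 in the others. The level of the other mt- genes with a copy, mt-Nd4l excepted, was at least 4.34 times that of the copy in every library. The FPKM total of P3 replicate 1 minus that of replicate 2 was 4174, and the same difference of mt-Atp6 was 3576. At P14 the difference of the totals was -9207, beside -4517 for mt-Atp6 and -2248 for mt-Nd4l. At P21 it was -2959, beside -40.3 for mt-Atp6 and -2788 for mt-Nd4l. Totals at ages without such a jump were close at E13 (257599 and 258047) and further apart at E17 (280623 and 264095). Whether the jumps account for differences of the totals was not tested.

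mt-Nd4l, a small membrane subunit of complex I, was nearly absent from 2 libraries. It was at 0.233 FPKM in P14 replicate 1 and at 2248 in replicate 2, and at 0.201 in P21 replicate 1 and 2788 in replicate 2. The low values correspond to about 1 read each. In the other 20 libraries it ranged from 2044 to 4173 FPKM. Its overlapping neighbour mt-Nd4 was at 1872 and 2052 FPKM at P14 and at 2569 and 2606 at P21. The copy Gm10222 was at 418 and 524 FPKM at P14 and at 669 and 631 at P21. P14 replicate 1 was low in both mt-Atp6 and mt-Nd4l. Changes of these 2 genes across ages, tests and counts of calls included, are therefore given below only as descriptions of the values. The cause was not tested.

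**Figure D3:**
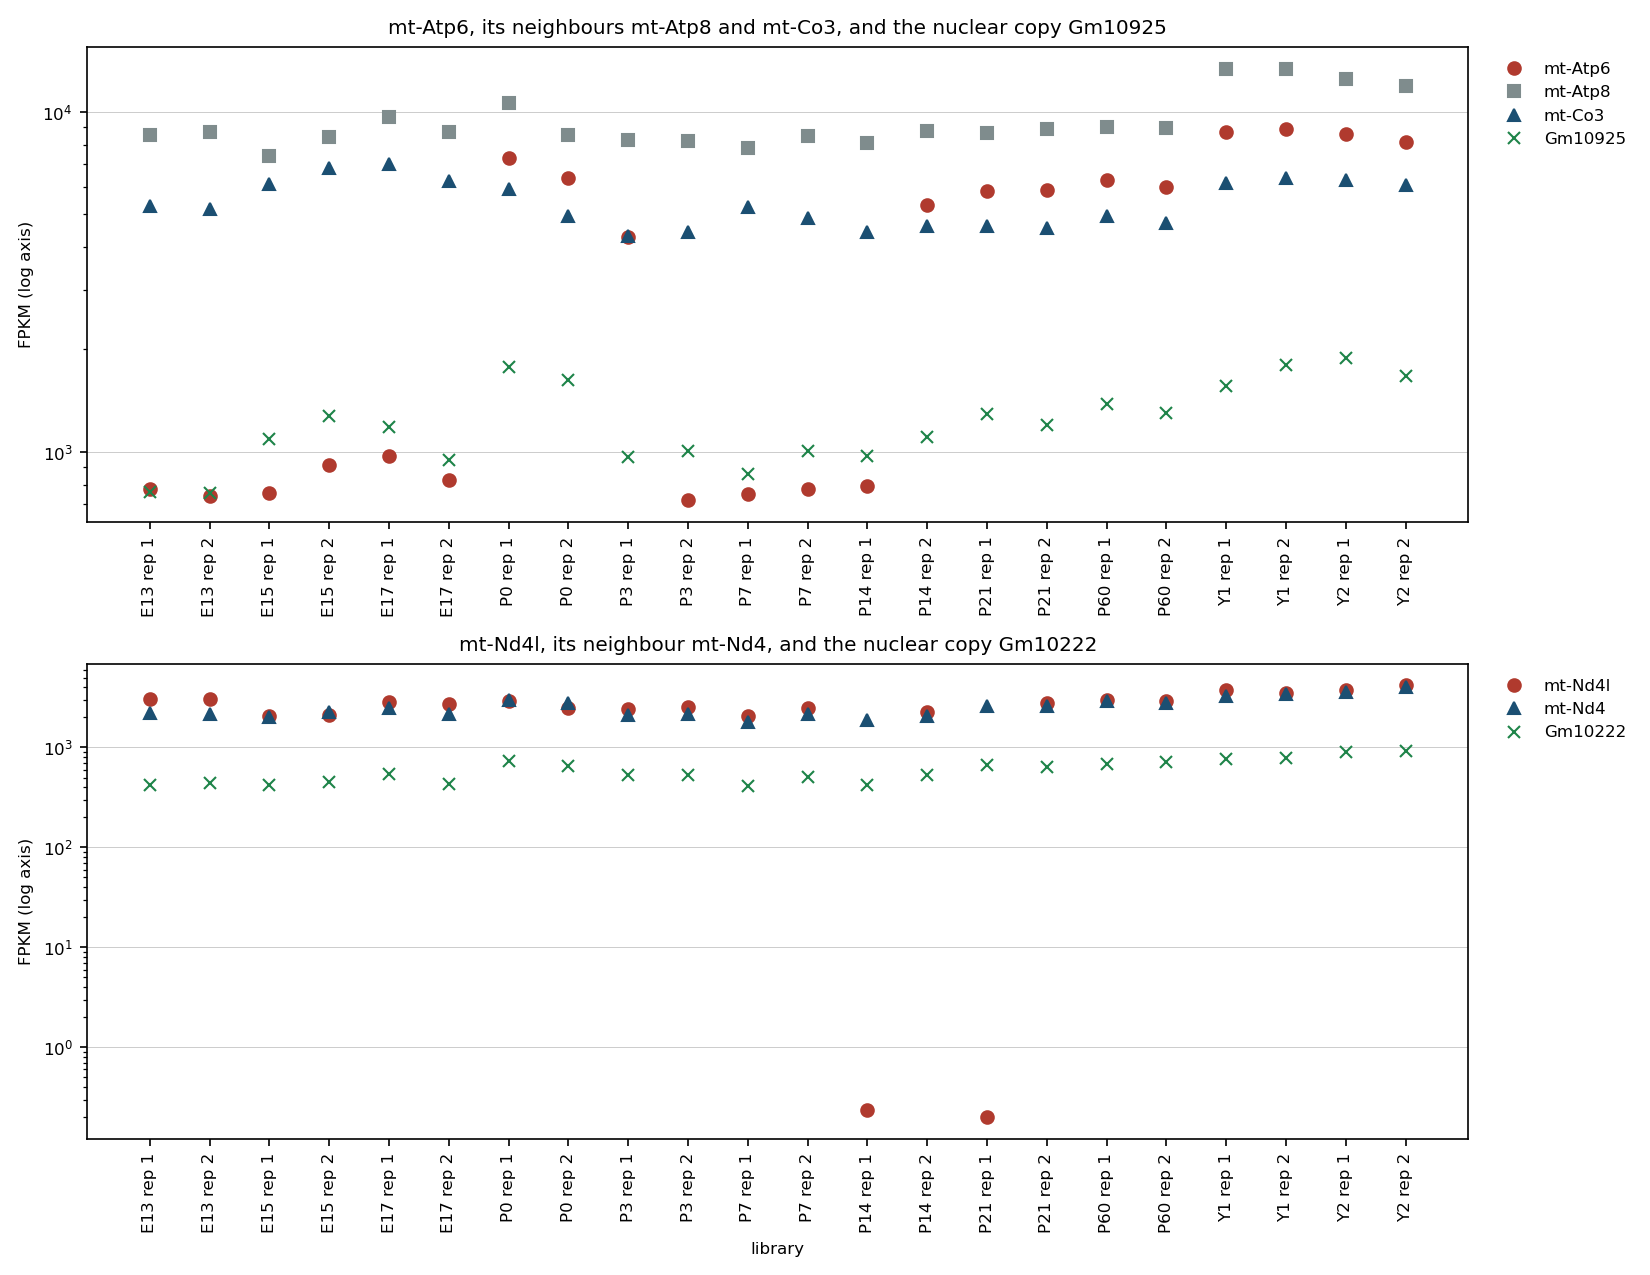
FPKM on a log axis in each of the 22 libraries, for mt-Atp6 with mt-Atp8, mt-Co3 and the nuclear copy Gm10925 (top), and for mt-Nd4l with mt-Nd4 and the copy Gm10222 (bottom). mt-Atp6 lies at the level of its copy in 10 libraries and beside or above mt-Co3 in 12, and mt-Nd4l falls to 0.233 and 0.201 FPKM in 1 library of P14 and 1 of P21.

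Most members differed between the ages, as did most genes of the ovary. In a limma fit of log2(FPKM + 1) to all 22 libraries, with Benjamini-Hochberg adjustment over 16117 genes, 12 of the 13 differed over the 11 ages (F test; 88.1% of all tested genes did). The exception was mt-Nd4l (adjusted p = 0.355), whose spread between libraries of one age was the largest. The widest range of age means after that of mt-Nd4l and mt-Atp6 was 1.88 on the log2 scale for mt-Nd6, between E15 and Y1. It was 1.45 for mt-Nd2 and 1.28 for mt-Nd5, and the remaining 8 spanned 0.60 to 0.96. Over the 10 steps between neighbouring ages the members had 24 calls, 13 higher and 11 lower, out of 130 tests, where 19.6% of all tests were called.

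Between fetal and adult ovary 10 members were higher in the adult and 0 lower, where 29.8% of all genes were called higher and 44.9% lower (74.7% in either direction). The minus-strand gene mt-Nd6 had the largest change after mt-Atp6. Its level was 33.8 to 60.8 FPKM in the fetal and 67.8 to 150 in the adult libraries, which did not overlap, a log2 difference of 1.09 (SE 0.130, limma, adjusted p = 2.52e-06). mt-Nd2 was at 1467 to 1835 FPKM in the fetal and 2043 to 3983 in the adult libraries (log2 0.69, SE 0.0945, adjusted p = 1.03e-05), again without overlap. mt-Nd4 was at 2027 to 2458 FPKM in the fetal and 2772 to 4035 in the adult libraries (log2 0.58, SE 0.0729, adjusted p = 4.73e-06), also without overlap. The fetal and adult libraries of the other called genes except mt-Atp6 overlapped. Their log2 differences were 0.54 for mt-Nd5, 0.41 for both mt-Co1 and mt-Atp8, 0.31 for mt-Cytb, 0.27 for mt-Co2 and 0.20 for mt-Nd1. The adult ages differed among themselves. mt-Nd1 was at 3544 ± 152 FPKM at P60 (SD, n = 2) against a fetal mean of 3903, and mt-Co2 at 6274 ± 317 against 6519. At P60 both thus lay under the fetal mean. Both P60 libraries of mt-Co1 (9139 and 8623 FPKM) lay within the range of the fetal libraries (7062 to 10726). The same held for both P60 libraries of mt-Atp8, mt-Cytb and mt-Nd5. With no filter on low genes 5 of the 10 calls remained, those of mt-Nd2, mt-Nd4, mt-Nd5, mt-Nd6 and mt-Atp6.

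mt-Atp6 had the largest difference. It was at 741 to 969 FPKM in the fetal and 6018 to 8881 in the adult libraries, a log2 difference of 3.22 (SE 0.416, adjusted p = 5.96e-06). Its 2 levels described above make up this difference. They also occurred between libraries of the same age, so the limma p-value is not read as an effect of age. mt-Co3 was at 6109 ± 768 FPKM in the fetal and 5764 ± 739 in the adult libraries (SD, n = 6), log2 -0.08 with adjusted p = 0.326. mt-Nd3 was at 1366 ± 116 and 1437 ± 313 FPKM, log2 0.05 with adjusted p = 0.673. mt-Nd4l was at 2634 ± 456 and 3517 ± 503 FPKM, log2 0.42 with SE 1.70 and adjusted p = 0.831, where the SE carries the spread at P14 and P21. The median of all tested genes was -0.13 on this scale. Median-of-ratios scaling moved that median to 0.00947 and the share of higher calls among all calls from 39.8% to 51.1%, and 10 members were again higher and 0 lower. At equal FPKM totals 8 were higher and mt-Co3 was lower (log2 -0.20, limma, adjusted p = 0.0137), while mt-Nd1 and mt-Co2 were no longer called. Quantile normalization gives the top ranks of each library the same values, which the members hold, and under it 2 members were higher and 5 lower, with mt-Nd1, mt-Nd2, mt-Nd3, mt-Nd4, mt-Co1 and mt-Cytb turning negative. The call of mt-Nd1 was also lost when 1 of E13 replicate 1 or 2, E15 replicate 1, E17 replicate 2, P60 replicate 1, Y1 replicate 1 or 2 or Y2 replicate 2 was left out (adjusted p = 0.0526 to 0.105), and the other 9 calls were kept.

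Markers of other cells moved between the same groups. The 16 ovarian cell markers summed to 200.05 to 511 FPKM in the fetal and 2605 to 8800.1 in the adult libraries, with 12 of 16 higher and 4 lower in the adult. Cyp11a1, the mitochondrial enzyme that starts steroid synthesis, went from 0.164 to 0.370 FPKM in the fetal libraries to 404 to 1813 in the adult ones. The 10 macrophage markers summed to 43.3 to 100.2 FPKM in the fetal and 318 to 1250.1 in the adult libraries, with 9 of 10 higher. The 11 red blood cell markers summed to 999 to 3502 FPKM in the fetal and 6.60 to 39.7 in the adult libraries, all 11 lower. Striated muscle, a tissue rich in mitochondria, had Ckm, Mb, Myh1, Myh2, Myh4 and Tnni2 under 1 FPKM in all 22 libraries. Its other listed markers reached 5.27 FPKM (Actn3), 2.05 (Acta1), 1.92 (Myl1) and 1.39 (Tnnt3). The 10 striated muscle markers summed to 3.07 to 5.81 FPKM in the fetal and 1.30 to 3.24 in the adult libraries, with 3 tested and all 3 lower. Their sum was highest at P0, at 7.14 and 8.63 FPKM. The 8 fat cell markers summed to 1.99 to 3.24 and 3.88 to 202 FPKM, with 2 of 7 tested higher and 1 lower. The 8 markers of oviduct and other epithelium summed to 134 to 175 and 45.6 to 159 FPKM, with 2 higher and 6 lower. The part of these cell types in the mt- levels was not tested.

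Before birth few members changed. From E13 to E17, 2 members were higher and 0 lower (18.6% of all genes were called higher, 14.2% lower, 32.7% in all). By limma 4 of the 13 had an unadjusted p under 0.05, without a share over all genes to set beside it. mt-Co1 was at 7216 and 7062 FPKM at E13 and at 10726 and 9258 at E17, log2 0.48 (SE 0.144, limma, adjusted p = 0.019). mt-Co2 went from 5953 and 5903 to 8171 and 7318 FPKM, log2 0.38 (SE 0.139, adjusted p = 0.0481). Neither pair of groups overlapped. Both calls were lost without E13 replicate 1, E13 replicate 2 or E17 replicate 1, and only that of mt-Co1 was kept without E17 replicate 2. Under quantile normalization 0 members were higher and 1 lower.

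mt-Nd5 was lower at E15 than at E13 or E17. From E13 to E15, 2 members were lower and 0 higher (11.9% of genes higher, 12.3% lower). mt-Nd5 fell from 1665 and 1638 FPKM to 776 and 864, log2 -1.01 (SE 0.187, limma, adjusted p = 0.00161). mt-Nd6, which overlaps its end, fell from 58.3 and 60.8 to 33.8 and 38.1 FPKM, log2 -0.71 (adjusted p = 0.0324). The groups were separate at both genes, and the mt-Nd6 call was lost without any 1 of the 4 libraries while that of mt-Nd5 was kept. mt-Nd5 rose again from E15 to E17, to 1471 and 1141 FPKM (log2 0.66, limma, adjusted p = 0.0133), together with mt-Co2 (log2 0.40, adjusted p = 0.0389), where 18.8% of genes were called higher and 15.6% lower. Without E15 replicate 1 or E17 replicate 1 neither call of this step remained, and without E17 replicate 2 only that of mt-Nd5 did.

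mt-Nd1 and mt-Nd6 were higher at birth than at E17, and mt-Nd1 then fell. From E17 to P0, 3 members were higher and 0 lower (7.86% of genes higher, 8.91% lower). mt-Nd1 rose from 4166 and 3499 to 5795 and 4857 FPKM (log2 0.47, SE 0.140, limma, adjusted p = 0.0324), and mt-Nd6 from 38.9 and 39.5 to 108 and 61.5 FPKM (log2 1.04, SE 0.225, adjusted p = 0.00627). mt-Atp6 went from its low to its high level, log2 2.94. By P3, 7 members were lower and 0 higher (12% of genes higher, 11.2% lower): mt-Nd1, mt-Nd2, mt-Nd3, mt-Nd4, mt-Co1, mt-Co2 and mt-Cytb. mt-Nd1 fell to 3238 and 3140 FPKM (log2 -0.73, adjusted p = 0.00158) and mt-Co1 from 11946 and 10456 to 7019 and 7283 FPKM (log2 -0.64, adjusted p = 0.00475). In each of the 13 genes P0 replicate 1 was above replicate 2. Without P0 replicate 1 no call remained from E17 to P0, and 2 remained from P0 to P3, as also without P3 replicate 2. Without P3 replicate 1, 3 of the 7 remained, and without E17 replicate 2 the first step kept only mt-Nd6. Without P0 replicate 2 the calls of mt-Atp6 in the first step and of mt-Nd2 in the second were lost. The red blood cell markers summed to 557 and 4241 FPKM in the P0 libraries and to 199.6 and 279.7 at P3, and their part was not tested. Under quantile normalization mt-Nd1 turned negative and mt-Co3 was called lower in the first step. In the second step none of the 7 was then called, mt-Cytb turned positive and mt-Co3 was called higher. Of the 7 decreases, 1 was called with no filter, 4 with a pseudocount of 0.1 and 4 at equal FPKM totals.

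After birth mt-Nd6 went up and down between neighbouring ages. From E17 to P7, 1 member was higher and 1 lower (16.6% and 20.7% of all genes, 37.3% in all). mt-Nd6 rose from 38.9 and 39.5 to 127 and 86.5 FPKM, log2 1.39 (SE 0.225, limma, adjusted p = 0.000198). The groups did not overlap, and the call was kept without any 1 of the 4 libraries. mt-Co3 went from 7016 and 6248 to 5231 and 4881 FPKM, log2 -0.39 (SE 0.132, adjusted p = 0.031), and this call was lost without E17 replicate 1, P7 replicate 1 or P7 replicate 2. Without P7 replicate 2 mt-Nd5 was called lower, log2 -0.45. Between neighbouring ages mt-Nd6 rose from P3 to P7 (52.7 and 56.5 to 127 and 86.5 FPKM, log2 0.93, with 7.85% of genes higher and 8.98% lower), fell to P14 (54.6 and 51.7 FPKM, log2 -0.97, with 2.48% higher and 1.22% lower) and rose to P21 (105 and 96.2 FPKM, log2 0.91, with 9.07% higher and 17.7% lower). The first was lost without P3 replicate 1 or P7 replicate 1, the second without P7 replicate 1 or either P14 library, and the third without P21 replicate 1.

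From P7 to P60, 3 members were higher and 0 lower (13.3% and 21.8% of all genes, 35.1% in all). mt-Nd2 rose from 1149 and 1392 to 2043 and 2060.1 FPKM, log2 0.70 (SE 0.164, limma, adjusted p = 0.00403). mt-Nd4 rose from 1785 and 2175 to 2908 and 2772 FPKM, log2 0.53 (SE 0.126, adjusted p = 0.00461). mt-Atp6 went from its low to its high level, log2 3.01. The groups were separate in all 3. Without P7 replicate 1 the calls of mt-Nd2 (adjusted p = 0.0526) and mt-Nd4 (0.0675) were lost, and mt-Nd4 turned to -0.20 under quantile normalization. Without P7 replicate 2 mt-Nd5 was called as well, log2 0.65. Between neighbouring ages both were called from P14 to P21, log2 0.61 and 0.40. There mt-Nd6 alone remained without P14 replicate 1 or P21 replicate 2, no call remained without P21 replicate 1, and that of mt-Nd4 was lost without P14 replicate 2. Under quantile normalization mt-Nd2 and mt-Nd4 turned negative in this step. From P21 to P60, 0 members passed the limma test in either direction (6.82% of all genes were higher and 6.7% lower), and 0 had an unadjusted p under 0.05. The libraries of these ages did not overlap at 11 of the 13 members. The share of all genes without overlap is not given here, so this count is a description only.

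From P60 to Y1, 4 members were higher and 0 lower (4.45% of genes higher, 9.98% lower): mt-Nd1, mt-Co2, mt-Atp8 and mt-Nd6. mt-Atp8 was at 8995 and 8959 FPKM at P60 and at 13405 and 13359 at Y1, log2 0.58 (SE 0.152, limma, adjusted p = 0.0211). All 13 members were higher in both Y1 libraries than in both P60 libraries, and 8 had an unadjusted p under 0.05 by limma. The share of all genes with either property is not given here, so these counts are descriptions only. With any 1 of the 4 libraries left out, 0 were called, by limma. The count was 0 with no filter, 2 with a pseudocount of 0.1 and 8 under median-of-ratios scaling. From P60 to Y2, 7 members were higher and 0 lower (10.8% and 17.4% of all genes, 28.2% in all): mt-Nd1, mt-Nd2, mt-Nd3, mt-Nd4, mt-Co1, mt-Co2 and mt-Atp8. mt-Co1 rose from 9139 and 8623 to 13365 and 13511 FPKM, log2 0.60 (SE 0.144, adjusted p = 0.00606). mt-Nd2 rose from 2043 and 2060.1 to 2711 and 3983 FPKM, log2 0.68 (SE 0.164, adjusted p = 0.00622), with unequal Y2 libraries. The groups did not overlap in 12 of the 13 genes, again without a share over all genes to set beside it.

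These ageing calls depended on single libraries. Without P60 replicate 1, 3 members remained called from P60 to Y2, without P60 replicate 2 only 1, and without Y2 replicate 2 only mt-Co1, while mt-Cytb was newly called there. The call of mt-Atp8 was also lost without Y2 replicate 1. Under quantile normalization 0 were called. From Y1 to Y2, 1 member was called lower and 0 higher. It was mt-Nd6, which went from 150 and 121 to 67.8 and 95.6 FPKM (log2 -0.74, SE 0.225, limma, adjusted p = 0.0299, with 12.1% of genes higher and 9.77% lower), a call lost without Y1 replicate 1 or Y2 replicate 1. The Y2 libraries also differed in their cells: the ovarian markers summed to 2605 FPKM in one and to 8800.1 in the other, and the macrophage markers to 632 and 1250.1. The part of that difference was not tested.

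**Figure D4:**
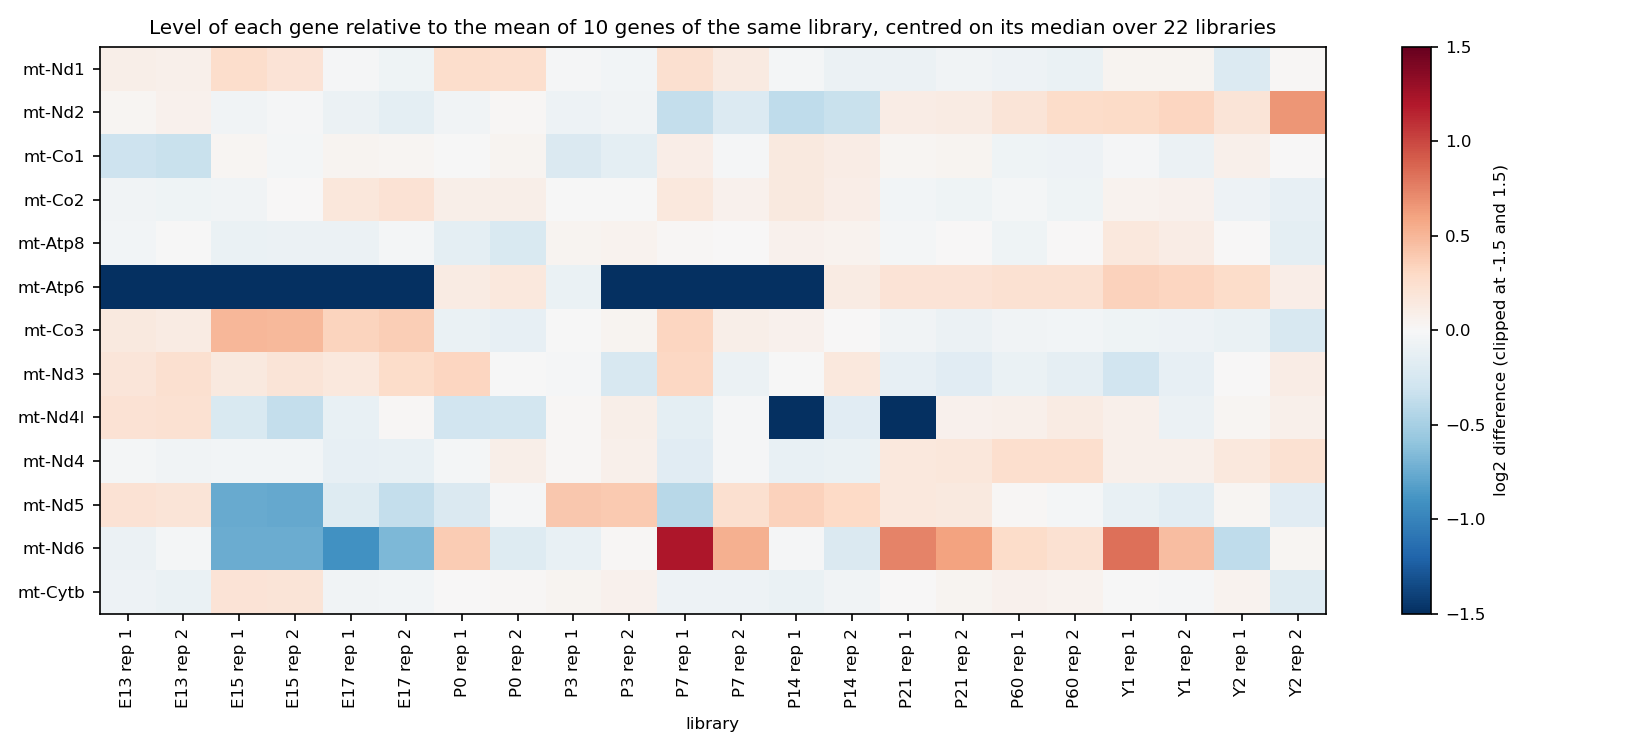
Colours give, for each of the 13 mt- genes (rows) and 22 libraries (columns), the log2 level relative to the mean of 10 genes in the same library, centred on the median of the gene over all libraries and clipped at -1.5 and 1.5. Rows such as mt-Atp8 and mt-Cytb stay pale, mt-Nd6 and mt-Nd5 vary with age, and mt-Atp6 is dark in 10 libraries and mt-Nd4l in 2.

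The balance between the genes varied least for mt-Atp8, mt-Cytb and mt-Co2 and most, apart from mt-Atp6 and mt-Nd4l, for mt-Nd6. Each gene was set against the mean log2 level of 10 genes of its library, those of the plus strand other than mt-Atp6 and mt-Nd4l. These 10 are part of that mean and mt-Nd6 is not, so their SDs are not strictly alike. Over the 22 libraries the SD of this log2 ratio was 0.0897 for mt-Atp8, 0.0926 for mt-Cytb and 0.0939 for mt-Co2. It was 0.207 for mt-Co3, 0.246 for mt-Nd2, 0.330 for mt-Nd5 and 0.552 for mt-Nd6. Between libraries of one age the SD was 0.235 for mt-Nd6, against 0.0449 for mt-Atp8, 0.0549 for mt-Cytb and 0.0302 for mt-Co2. mt-Co3 stood highest against the others at E15 (0.98 ± 0.0119, SD, n = 2) and lowest at Y2 (0.31 ± 0.101). mt-Nd2 was at -1.39 ± 0.0313 at P14 and at -0.60 ± 0.329 at Y2. mt-Nd5 was at -2.01 ± 0.00849 at E15 and at -0.85 ± 0.0112 at P3. Its P7 libraries differed most, at 949.7 and 1629.7 FPKM.

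The ratio of mt-Nd6 to mt-Cytb compares adjacent genes of opposite strands. Its geometric mean was 0.0118 in the fetal and 0.0206 in the adult libraries, a log2 difference of 0.80 (exact two-sided permutation test over libraries, n = 6 against 6, adjusted p = 0.013 over 2 ratios). The libraries overlapped, the fetal ones running from 0.00899 to 0.0182 and the adult ones from 0.0128 to 0.0308. The ratio of mt-Atp6 to mt-Co3 was 0.123 to 0.148 in the fetal and 1.28 to 1.41 in the adult libraries, with no overlap. The log2 difference was 3.30 (same exact permutation test, adjusted p = 0.00433, the smallest it can give). As mt-Atp6 also changed level between libraries of the same age, this p-value is not read as an effect of age. The libraries of one age share that age, and with the 3 age means permuted on each side neither ratio could fall below an unadjusted p of 0.1.

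The nuclear genes that complete the same complexes were called in both directions, as genes of the whole table were. Of 79 listed nuclear subunits of complexes I to IV and of ATP synthase, 78 were tested between fetal and adult ovary. Of these 21 were higher in the adult, 27 lower and 30 not called, where 29.8% of all genes were higher and 44.9% lower. Their median log2 difference was -0.03, against -0.13 for all tested genes. The split depended on scaling, with 34 higher and 10 lower under median-of-ratios scaling and 13 higher and 34 lower at equal FPKM totals. Among complex I subunits Ndufs8 rose from a median of 28.4 to 45.4 FPKM (log2 0.51, limma, adjusted p = 6.22e-05) and Ndufb6 fell from 31.5 to 17.8 (log2 -0.77, adjusted p = 5.66e-06). In complex II the flavoprotein Sdha rose from 49.3 to 61.3 FPKM and the membrane anchor Sdhc fell from 25.8 to 18.1. In complex III Uqcrq rose from 18.2 to 33.7 FPKM and Uqcrc1 fell from 29.3 to 22.8. In complex IV Cox6a1 rose from 91.4 to 149 FPKM and Cox7c fell from 10.5 to 6.90.

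Of ATP synthase, 4 of 16 nuclear subunits were higher and 6 lower (29.8% and 44.9% of all genes). The ring subunit genes went both ways, Atp5g3 from 55.9 to 85.8 FPKM (log2 0.59) and Atp5g2 from 3.31 to 1.76 (log2 -0.68). From P60 to Y2, where 7 mt- genes were called higher, 3 of the 78 nuclear subunits were higher and 3 lower (28.2% of all genes were called). The difference between the 2 sets of genes was not tested.

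For the machinery that copies, transcribes and processes mitochondrial DNA, 38 of 41 listed genes were tested. Of these 4 were higher in the adult, 21 lower and 13 not called, where 29.8% of all genes were higher and 44.9% lower. Their median log2 difference was -0.21. Under median-of-ratios scaling 8 were higher and 15 lower, with a median of -0.0568. The largest changes were those of Tfb1m, a methyltransferase of mitochondrial ribosomal RNA, with a median of 18.0 FPKM in the fetal and 9.86 in the adult libraries (log2 -0.89, limma, adjusted p = 7.55e-08), and Trmt5, a transfer RNA methyltransferase, with 13.4 and 8.16 (log2 -0.70, adjusted p = 1.97e-07). Of 8 tested regulators of mitochondrial biogenesis, 2 were higher and 5 lower, led by the transcription factor Myc (2.13 to 4.002 FPKM, log2 0.71) and the coactivator Pprc1 (5.08 to 2.97 FPKM, log2 -0.52). Of 10 outer membrane and matrix genes, 4 were higher and 3 lower, with the chaperone Hspd1 at a median of 151 FPKM in the fetal and 199 in the adult libraries (log2 0.43) and the channel Vdac3 at 96.0 and 58.3 (log2 -0.77).

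**Figure D5:**
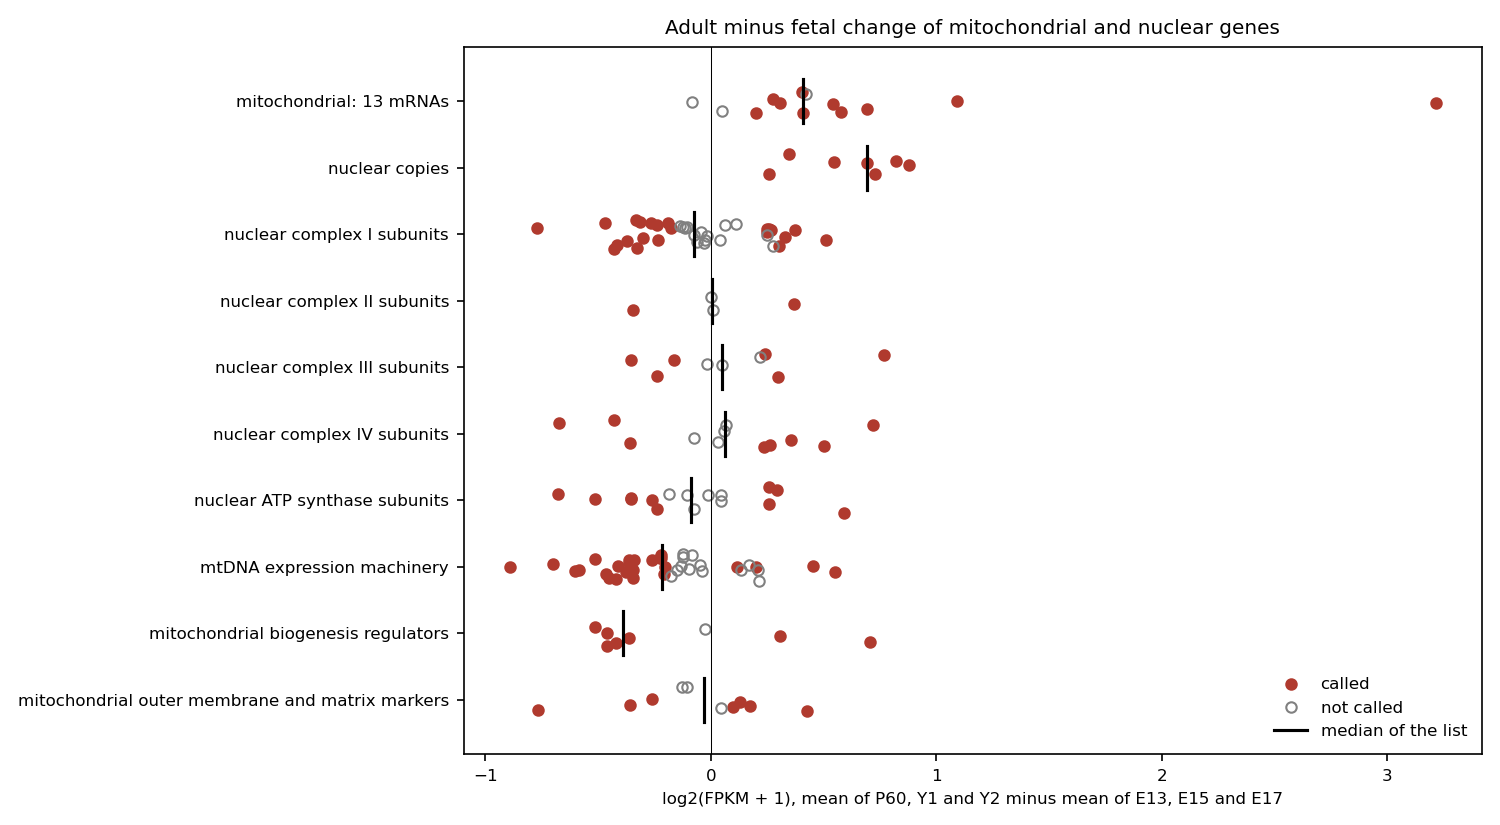
Each point is a gene, at its difference in log2(FPKM + 1) between adult (P60, Y1, Y2) and fetal (E13, E15, E17) ovary, by list, filled where it passed the limma test and open where not, with a bar at the median of the list. The 13 mt- genes lie from -0.08 to 3.22 with 10 filled on the right, while nuclear subunits lie on both sides of 0.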

How the data were processed

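The deposited values are FPKM per gene, 1 table of 34745 rows and 22 columns. Per the submitters' processing notes the authors used HISAT2, StringTie and edgeR with mm10, whereas the series' design text names TopHat. Versions, annotation and the treatment of reads with several matches are not given there. Each column was matched to its sample by name.

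The 16117 genes that reached 1 FPKM in 2 or more libraries were tested on log2(FPKM + 1), which understates changes of low genes, with limma 3.58.1 in R 4.3.3 (eBayes with trend, age as a factor of 11 levels, 11 residual degrees of freedom), Benjamini-Hochberg adjustment within each comparison and a threshold of 0.05. The fit was tested on simulated data. Ratios used exact permutation tests (scipy 1.17.1). Nuclear copies are genes sharing at least 50% of their 31-base words with chromosome M of GENCODE M21 (GRCm38). Gm10275, listed at first, shares 0 and was left out.

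Depth was estimated from values under 0.2 FPKM, of which 94.5% to 97.1% of 1158 to 1443 per library were whole within 0.02 reads. All mt- genes are named. Of each nuclear list the 2 called genes with the largest fetal to adult change are named, and of the copies the 5 of highest mean. Gm28438 is named for its base difference. Genes that check a tissue were chosen after their values were seen. The members and lists were chosen with earlier results of these data known. Alternatives changed the pseudocount, filter, scaling, trend, block, the copies and single libraries.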

Additional observations from a re-analysis of the deposited data

How the results depend on the processing

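Of 650 single-gene results under settings that kept all libraries, 552 kept direction and call, 43 lost and 25 gained the call, and 30 changed sign. Of these 30, 8 had been called, all 8 reversed under quantile normalization, which fixes the values at the top ranks by construction. There, adult minus fetal log2 differences were -0.19 for mt-Nd1, -0.26 for mt-Nd2, -0.0229 for mt-Co1, -0.20 for mt-Nd4 and -0.11 for mt-Cytb. Those of Y2 minus P60 were -0.0822 for mt-Co2 and -0.0687 for mt-Atp8, and that of P60 minus P7 was -0.20 for mt-Nd4.

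The other 22 had not been called. Under quantile normalization they were -0.52 for mt-Nd3 (then called) and -0.198 for mt-Nd4l in adult minus fetal, -0.0946 for mt-Nd1 and -0.137 for mt-Atp8 in E17 minus E13, 0.00237 for mt-Nd5 in P7 minus E17, -0.0687 for mt-Co1, -0.1996 for mt-Nd4l and -0.212 for mt-Nd5 in P60 minus P7, and -0.0751 for mt-Cytb in Y2 minus P60. Under median-of-ratios scaling mt-Nd1 had -0.0248 (E17 minus E13), 0.0296 (P7 minus E17) and 0.00229 (P60 minus P7), mt-Co3 0.0198 (P60 minus P7) and 0.0968 (adult minus fetal), and mt-Nd3 0.0363 (P60 minus P7). At equal FPKM totals mt-Nd1 had -0.0703 (E17 minus E13; -0.0428 with the mt- genes left out of the total) and 0.0128 (P7 minus E17), mt-Co2 -0.0289 (P60 minus P7), mt-Nd3 -0.0646 (adult minus fetal), mt-Nd4 -0.0216 (E17 minus E13) and mt-Nd6 -0.0712 (Y2 minus P60).

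With 1 library left out, 313 of 364 results kept direction and call. The 11 that changed sign had not been called. Ranges of these genes over the libraries left out were, for E17 minus E13, -0.118 to 0.134 for mt-Nd1, -0.164 to 0.0903 for mt-Nd2 and -0.0396 to 0.153 for mt-Nd4. For P7 minus E17 they were -0.149 to 0.103 for mt-Nd1 and -0.447 to 0.331 for mt-Nd5. For P60 minus P7 they were -0.0236 to 0.0796 for mt-Co2, -0.185 to 0.0821 for mt-Nd3 and -0.1296 to 0.649 for mt-Nd5, and for Y2 minus P60 -0.186 to 0.304 for mt-Nd6.

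Counts of called mt- genes moved by over 1.5 times as follows. The 2 calls of E17 against E13 became 0 with a pseudocount of 0.1 or no filter, and 1 with median-of-ratios scaling, quantile normalization or a replicate block. The 2 of P7 against E17 became 1 with a pseudocount of 0.1, no filter, quantile normalization or copies added, and 4 with a pseudocount of 10 or no trend. The 7 of Y2 against P60 became 1 with no filter, 0 with quantile normalization and 4 at equal FPKM totals. With no filter the F test gave 6, fetal against adult 5 and the 10 steps 8 in place of 12, 10 and 24. With quantile normalization the F test gave 5 and the steps 13. Leaving out 1 library gave 12 to 13 for the F test, 0 to 1 for E17 against E13, 1 to 2 for P7 against E17, 1 to 4 for P60 against P7, 1 to 6 for Y2 against P60, 9 to 10 for fetal against adult and 16 to 27 for the steps. An age left with 1 library is assumed to vary like the others. Apart from what construction shows, the cause was not tested.

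The adult minus fetal share of 5.03 points was 5.69 with copies, 1.497 over the 6 genes with few words elsewhere and 2.49 without mt-Atp6 and mt-Nd4l, a choice made after seeing the data. With age means permuted the differences were again 0.80 for mt-Nd6 to mt-Cytb and 3.30 for mt-Atp6 to mt-Co3, with adjusted p = 0.2 for both in an exact permutation test. Without 1 library they ranged from 0.687 to 0.939 and from 3.27 to 3.33. Replicate numbers showed little sign of pairing the libraries: 1 of 55 pairs of ages had a correlation of deviations over 0.1 (median -0.00291, highest 0.265). This check could miss a pairing that affects few genes or few ages. The replicate block changed no count by over 1.5 times other than that of E17 against E13. The planned ratio of ribosomal RNAs was not run. Of the 37 annotated mitochondrial genes, only the 13 protein genes matched a row by gene ID.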
